A study of Mus musculus with 4 samples.

Results

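The Notch receptors Notch1, Notch2, Notch3 and Notch4, the ligands Dll1, Jag1 and Jag2, and the target genes Hes1, Hey1 and Heyl were followed through 4 bulk RNA-seq libraries of mouse mammary basal cells. The 10 genes were taken by name, after matching the NCBI Gene numbers of the deposited values to mouse symbols, from 17630 genes measured in each library. The study asked how the sympathetic nerves of the mammary gland act on its basal cells, the outer layer of the ducts, which holds the mammary stem cells. For that purpose basal cells were sorted straight from the gland of control mice, with no treatment in the label, and of mice given 6-OHDA (6-hydroxydopamine, a neurotoxin that destroys the endings of noradrenergic nerves), and basal cells were grown into colonies in Matrigel, a basement membrane gel, with or without SP, the β2 adrenergic agonist salbutamol together with the α1 agonist phenylephrine. Each of the 4 conditions had 1 library. They are called sorted control, sorted 6-OHDA, control colonies and SP colonies here. All 4 carried the genotype WT in the labels. The labels for these libraries gave no strain, age of the mice, number of mice pooled, days in culture or dose of SP. The titles of the colony libraries hold a number without a unit, and what it stands for was not given there. The study's methods describe injections of 6-OHDA under the skin of young mice around puberty and of pregnant mice. The schedule behind the sorted 6-OHDA library was not given in the labels. Sorting kept cells low in lineage markers of blood and endothelium (CD45, TER119 and CD31), positive for CD24 and high in CD29, which enriches basal cells without making them pure. The colony medium held epidermal growth factor, insulin, transferrin and selenium, so that colonies and sorted cells differed in medium, matrix, time and dissociation all at once, and these cannot be told apart.

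Notch receptors are single-pass membrane proteins that are bound by Delta-like and Jagged ligands on a neighbouring cell. Binding lets ADAM proteases and then γ-secretase cut the receptor, and the freed intracellular domain joins RBPJ and Mastermind-like proteins in the nucleus to switch on genes of the Hes and Hey families, which encode transcriptional repressors. In the mammary gland Notch signalling is known for directing progenitors toward the luminal fate, and Dll1 has been used as a marker of basal stem cells.

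The values were FPKM, fragments scaled to the length of the transcript in kilobases and to all fragments of the library, which allows levels of different genes to be set side by side per length. The depth was read roughly from the steps between low FPKM values, since the files held no counts. With fragments taken as 250 bases long, each FPKM on a kilobase of transcript stood for about 17.2 fragments in sorted control, 16.7 in sorted 6-OHDA, 17.8 in control colonies and 17.9 in SP colonies, so the libraries were of similar depth. A difference between 2 libraries is given as the difference in log2(FPKM + 1), a scale that understates the change of genes with low FPKM. Genes with a mean of at least 1 FPKM over the 2 libraries were compared. A gene is called higher or lower when its difference was over 0.3 in size, the fold threshold of the study. The study's own calls also required a low adjusted P-value, so the counts given here are not its counts. With 1 library per condition there was no spread between replicates, so no difference was tested and none could be set against replicate error. The difference of 6-OHDA from control and that of colonies from sorted cells share the sorted control library, and the differences of SP from control colonies and of control colonies from sorted cells share the control colony library.

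The sorted 6-OHDA library stood apart from the other libraries by its salivary gland transcripts. The 12 secretory genes of the salivary gland that were measured, of 15 listed, summed to 16094 FPKM there, or 3.11% of all FPKM of the library, against 1.87 FPKM in sorted control, 1.52 in control colonies and 1.69 in SP colonies. Bpifa2, a salivary secretory protein, was the most abundant gene of that library at 7277 FPKM and was listed at 0 in sorted control. Of the 12 genes, 9 were listed at 0 in sorted control and 1, Prr27, in sorted 6-OHDA. Since FPKM divides by all fragments of a library, the differences after 6-OHDA were also computed with both libraries brought to the same sum without these genes, and that left 1 member higher and 1 lower, as with the deposited values. That bears on scaling alone: whether other RNA of the same source added to the member values of this library was not tested.

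The labelled cell type was checked against its markers. All 9 basal markers were above 1 FPKM in each of the 4 libraries, with Krt14, a keratin of the basal layer, the most abundant in each, at 3595 FPKM in sorted control, 2633 in sorted 6-OHDA, 3298 in control colonies and 6920 in SP colonies. The basal markers summed to 8937, 8591, 6008 and 12728 FPKM in the same order, with 1 of 9 higher and 6 lower in control colonies than in sorted control, and 6 of 9 higher and 1 lower with SP. The 13 luminal markers were also present, led by the keratin Krt8, and summed to 1171, 1041, 1640 and 1595 FPKM.

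Between control colonies and sorted control, Notch1, Notch3, Jag2 and Hey1 were higher and Notch2, Dll1 and Hes1 were lower. In the deposited values each role thus held both higher and lower members. Of the 8 members compared 4 were higher, where 55.7% of the 12244 genes compared were higher, and 3 were lower, where 26.6% were lower. The median difference of all genes compared was 0.45, and the deposited values therefore lean toward colonies. After both libraries were scaled to a median ratio of 1 over the genes compared, 39.7% of genes were higher and 39.4% lower, with 67.7% of the called genes higher before scaling and 50.1% after it. On that scale 3 members were higher (Notch1, Notch3 and Hey1) and 4 were lower (Notch2, Dll1, Jag1 and Hes1), and the median difference of the members went from 0.27 to −0.23. No ligand was higher on that scale, so receptors and targets alone still held both. Neither share of members is a result about Notch genes as a set. For the members compared between the controls, the differences are given below on both scales. Other differences are as deposited unless scaling is named. Notch4 and Heyl were under the level needed for this comparison.

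After 6-OHDA most members differed little from sorted control. Of the 10 members, Notch4 alone was higher and Hes1 alone was lower by over 0.3, beside 15.8% of 11749 genes higher and 8.35% lower, and the median difference was −0.09 for the members and 0.06 for all genes. Median-ratio scaling moved the genes to 11.6% higher and 11.4% lower, the higher genes from 65.4% to 50.5% of those called, and the members to 1 higher and 3 lower, since Notch2 and Dll1 then passed the threshold beside Hes1.

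With SP, Jag1 was higher and Notch3 and Hey1 were lower than in control colonies. These were 1 higher and 2 lower of 8 members compared, with 11.7% of 11849 genes higher and 19.8% lower, and the medians were −0.09 for the members and −0.07 for all genes. Median-ratio scaling gave 14.8% of genes higher and 14.9% lower, moved the higher genes from 37.1% to 49.8% of those called, and gave 2 members higher, Jag1 and Hes1, and 1 lower, Hey1. Notch4 and Heyl were not compared.

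**Figure D1:**
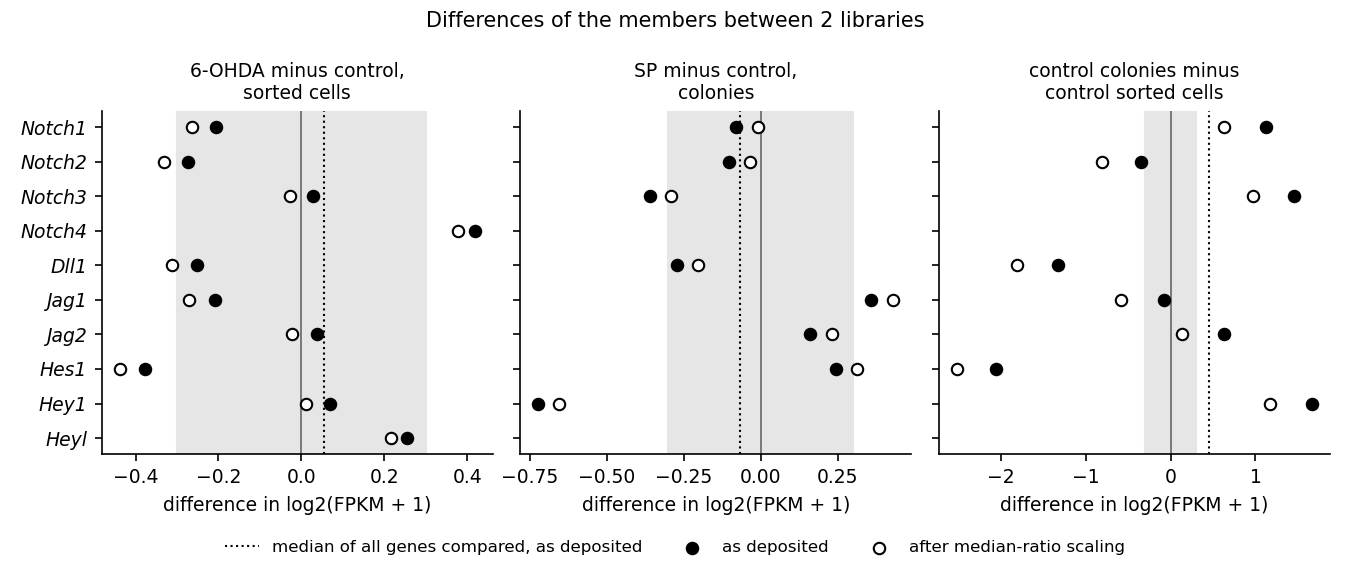
Difference in log2(FPKM + 1) of each member in the 3 comparisons, 1 library on each side, with filled points for the deposited values, open points after median-ratio scaling, the grey band for differences up to 0.3 in size and the dotted line for the median of all genes compared; the horizontal axes differ in range. Members spread from −2.07 (Hes1) to 1.67 (Hey1) between control colonies and sorted control, and from −0.38 (Hes1) to 0.42 (Notch4) after 6-OHDA.

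Jag1 was the most abundant member per length in each of the 4 libraries. In sorted control the order by FPKM was Jag1, Dll1, Hes1, Jag2, Notch2, Notch1, Hey1, Notch3, Heyl and Notch4, and in control colonies it was Jag1, Jag2, Notch1, Dll1, Hey1, Notch3, Notch2, Hes1, Notch4 and Heyl. Hes1 moved from the third place to the eighth, and Notch1 from the sixth to the third. Whether neighbours in these orders differ beyond the spread of replicates is unknown.

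**Figure D2:**
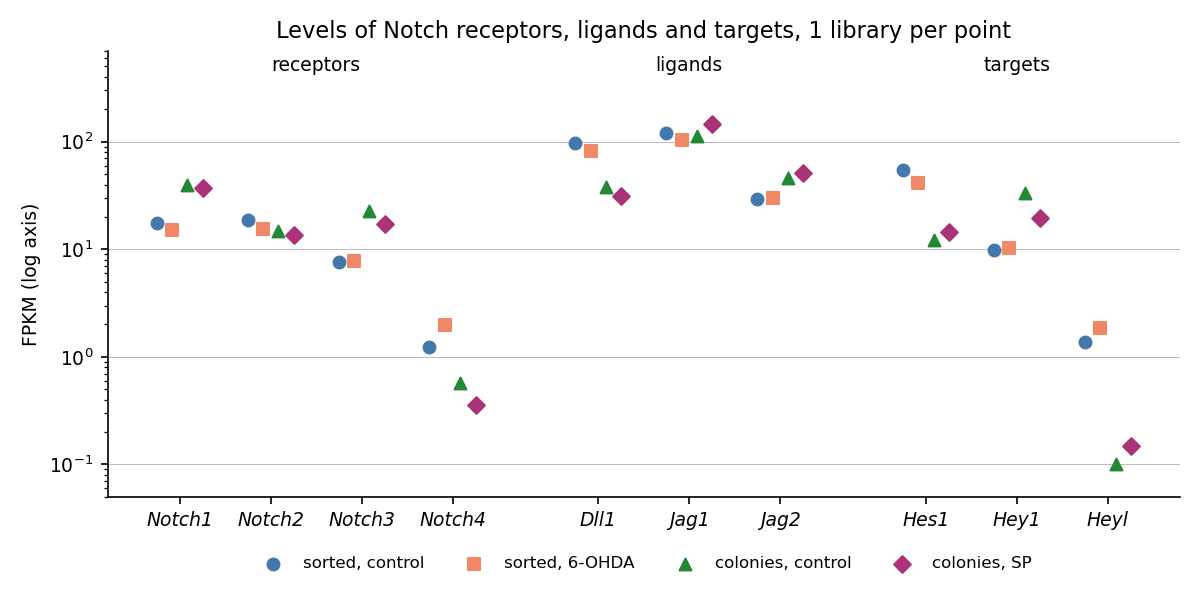
FPKM of the 10 members on a log axis, with 1 point for each of the 4 libraries. Dll1 and Hes1 are high in the sorted libraries, Notch1, Notch3 and Hey1 in the colonies, and Notch4 and Heyl are below 2 FPKM in each library.

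Notch1, the receptor gene on chromosome 2 (NCBI Gene 18128, chr2:26457902-26503822 by RefSeq on GRCm38.p6, the assembly of mm10), was measured at 17.5 FPKM in sorted control, 15.1 in sorted 6-OHDA, 39.4 in control colonies and 37.2 in SP colonies. Both colony libraries were above both sorted ones. The difference between control colonies and sorted control was 1.12, a 2.25-fold ratio of FPKM, and 0.63 after median-ratio scaling. The difference was −0.21 after 6-OHDA and −0.08 with SP.

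Notch3 (Gene 18131, chr17:32120820-32166896), a receptor best known from the smooth muscle of vessels, had 7.57 FPKM in sorted control, 7.73 in sorted 6-OHDA, 22.5 in control colonies and 17.3 in SP colonies. Colonies again held more than sorted cells, by 1.46 for the controls or 2.97-fold in FPKM, and by 0.97 after scaling. SP colonies had less than control colonies, with a difference of −0.36 that shrank to −0.29 after median-ratio scaling, under the threshold.

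Notch2 (Gene 18129, chr3:98013538-98150367) had 18.9 FPKM in sorted control, 15.5 in sorted 6-OHDA, 14.7 in control colonies and 13.6 in SP colonies. It was the receptor highest in sorted cells and lower in the other 3 libraries, by differences of −0.27 after 6-OHDA and −0.35 in control colonies, which median-ratio scaling took to −0.33 and −0.82, while a pseudocount of 5 in place of 1 took the second to −0.28, under the threshold. SP moved it by −0.10.

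Within a library, shares of the summed receptor FPKM do not depend on how libraries are scaled. Notch1 made up 38.7% of the receptor sum in sorted control, 37.4% in sorted 6-OHDA, 51.1% in control colonies and 54.3% in SP colonies. Notch2 made up 41.8%, 38.4%, 19.0% and 19.8%, and Notch3 16.7%, 19.2%, 29.2% and 25.3%, in the same order. The ratio of Notch1 to Notch2 FPKM was 0.927 and 0.974 in the sorted libraries and 2.69 and 2.74 in the colonies, so the balance of this pair differed more between culture and gland than between treated and control libraries. The ratio of Notch1 to Notch3 FPKM did not separate them, at 2.32 and 1.95 in the sorted libraries and 1.75 and 2.15 in the colonies.

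Notch4 (Gene 18132, chr17:34564286-34588543), the receptor of endothelial cells, was scarce, with 1.23 FPKM in sorted control, 1.98 in sorted 6-OHDA, 0.57 in control colonies and 0.36 in SP colonies. These levels correspond to about 134, 210, 64 and 41 fragments on its longest GENCODE transcript. The difference after 6-OHDA was 0.42, and 0.16 with a pseudocount of 5 in place of 1. The 11 endothelial markers summed to 448 FPKM in sorted control, 445 in sorted 6-OHDA, 12.7 in control colonies and 3.70 in SP colonies. All 11 were lower in control colonies than in sorted control, with a median difference of −4.35, while 2 of 11 were higher and none lower after 6-OHDA. Pecam1, which encodes the CD31 used to exclude endothelium from the sort, was their most abundant gene in sorted control at 106.6 FPKM, and in SP colonies at 1.56 FPKM. Plvap led at 99.9 FPKM in sorted 6-OHDA and Erg at 10.3 FPKM in control colonies, and Cldn5 and Tie1 were listed at 0 in SP colonies. In bulk samples fewer cells of a type and less RNA per cell cannot be told apart, and the part of endothelial RNA in the levels of Notch4 was not tested.

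Dll1 (Gene 13388, chr17:15367354-15376932), the Delta-like ligand of basal cells, had 97.0 FPKM in sorted control, 81.3 in sorted 6-OHDA, 38.0 in control colonies and 31.3 in SP colonies. It was highest in sorted control and lowest in SP colonies. Control colonies differed from sorted control by −1.33, or −1.82 after median-ratio scaling, and sorted control held 2.55 times the FPKM of control colonies. Both treatments went with lower values within the threshold, −0.25 after 6-OHDA and −0.27 with SP, and the first passed it after median-ratio scaling at −0.31. Of the basal markers given above 6 of 9 were lower in control colonies too, and their part in the result was not tested.

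Jag1 (Gene 16449, chr2:137081451-137116520), a Jagged ligand, had 120.3 FPKM in sorted control, 104 in sorted 6-OHDA, 113 in control colonies and 146 in SP colonies. As deposited it differed least of the ligands between the controls, by −0.08, but scaling took that to −0.59, past the threshold. SP colonies were higher by 0.36, a 1.29-fold ratio, and by 0.43 after scaling. The difference after 6-OHDA was −0.21. The basal markers given above were also higher with SP, 6 of 9, and their part in the result was not tested.

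Jag2 (Gene 16450, chr12:112907803-112929812) had 29.2 FPKM in sorted control, 30.01 in sorted 6-OHDA, 45.6 in control colonies and 51.1 in SP colonies. The colonies were above the sorted cells, by 0.63 for the controls, but by 0.13 after median-ratio scaling, under the threshold, while it stayed past the threshold at 0.45 with both libraries at the same sum and at 0.46 after quantile normalization. The differences with the treatments were 0.04 after 6-OHDA, where the sign turned with scaling to −0.02, and 0.16 with SP.

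Dll1 made up 39.3% of the ligand sum in sorted control, 37.8% in sorted 6-OHDA, 19.3% in control colonies and 13.7% in SP colonies. Jag1 made up 48.8%, 48.3%, 57.5% and 63.9% in the same order, and Jag2 11.9%, 13.9%, 23.2% and 22.4%. Jag1 thus exceeded Dll1 by 1.24 and 1.28 times in sorted cells, 2.98 times in control colonies and 4.65 times in SP colonies. The summed ligands were 5.45 times the summed receptors in sorted control, 5.35 in sorted 6-OHDA, 2.55 in control colonies and 3.33 in SP colonies, all in FPKM.

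Hes1 (Gene 15205, chr16:30065357-30067796), a repressor of the basic helix-loop-helix family and the classic Notch target, had 54.2 FPKM in sorted control, 41.5 in sorted 6-OHDA, 12.2 in control colonies and 14.6 in SP colonies. It had the largest difference of any member compared, −2.07 between the controls, a level 4.45 times as high in sorted control, and −2.53 after scaling. It was lower after 6-OHDA by a difference of −0.38, and the difference with SP was 0.24, or 0.31 after scaling. Immediate early genes, which respond to stress and dissociation within minutes as well as to growth factors, also differed between these libraries. Their 11 markers summed to 4196 FPKM in sorted control, 3523 in sorted 6-OHDA, 1727 in control colonies and 1068 in SP colonies, and none was listed at 0. In control colonies 9 of 11 were lower and 2 higher than in sorted control, after 6-OHDA 4 of 11 were lower and none higher, and with SP 10 of 11 were lower and none higher. Fos was the most abundant of them in both sorted libraries, at 809 and 666 FPKM, Junb in control colonies at 359 and Jun in SP colonies at 264. In control colonies most of these markers were lower, as Hes1 was, while after 6-OHDA 7 of 11 lay within the threshold. With SP it was Hes1 that lay within the threshold as deposited. The part of these markers in the levels of Hes1 was not tested.

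Hey1 (Gene 15213, chr3:8663359-8667038), a related repressor, had 9.76 FPKM in sorted control, 10.3 in sorted 6-OHDA, 33.2 in control colonies and 19.7 in SP colonies. Between the controls it differed in the direction opposite to Hes1, by 1.67 (3.40-fold), or 1.18 after scaling. With SP the difference of Hey1 was −0.72, or −0.65 after scaling, while that of Hes1 lay within the threshold as deposited. After 6-OHDA Hey1 differed by 0.07. Of the 13 luminal markers 9 were higher and 1 lower in control colonies than in sorted control, beside 55.7% and 26.6% of all genes, and 7 were higher and 3 lower after scaling. With SP 1 of 13 was higher and 6 were lower, and after 6-OHDA 1 of 12 compared was higher and 4 were lower. None of the 13 was listed at 0, Krt8 led them at 560 FPKM in sorted control, 545 in sorted 6-OHDA, 698 in control colonies and 683 in SP colonies, and their part in the result was not tested. Squamous differentiation markers moved opposite to Hey1 and Notch3, and with Jag1, after SP. The 11 measured, of 12 listed, summed to 37.7 FPKM in sorted control, 46.4 in sorted 6-OHDA, 101 in control colonies and 753 in SP colonies, and 8 of 8 compared were higher with SP. Sprr1a led in both sorted libraries at 15.7 and 19.1 FPKM, Sbsn in control colonies at 47.9 and Krtdap in SP colonies at 528, and Sprr1b and Calm4 were listed at 0 in sorted control. Their part in the SP differences was not tested.

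Heyl (Gene 56198, chr4:123233556-123249870), a target found in vessel walls, had 1.38 FPKM in sorted control, 1.84 in sorted 6-OHDA, 0.10 in control colonies and 0.15 in SP colonies, or about 102, 132, 8 and 12 fragments. It was near the limit of measurement in both colony libraries, and the difference after 6-OHDA was 0.25. The 8 pericyte markers summed to 261 FPKM in sorted control, 212 in sorted 6-OHDA, 136 in control colonies and 115 in SP colonies, with Mcam, which basal cells also express, the most abundant in each at 221, 162, 133 and 114 FPKM. Of 6 compared, 6 were lower in control colonies than in sorted control, 7 of 8 were below 1 FPKM in SP colonies, Kcnj8 was listed at 0 in both colony libraries and Higd1b in SP colonies. The endothelial markers were lower in colonies too, and the part of either in the Heyl values was not tested.

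Hes1 supplied 83.0% of the summed target FPKM in sorted control, 77.4% in sorted 6-OHDA, 26.8% in control colonies and 42.4% in SP colonies. Hey1 supplied 14.9%, 19.2%, 73.0% and 57.2% in the same order. The ratio of Hey1 to Hes1 was 0.180 in sorted control, 0.248 in sorted 6-OHDA, 2.72 in control colonies and 1.35 in SP colonies, so of this pair Hes1 was the higher in sorted cells and Hey1 in colonies, whatever the scaling between libraries.

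**Figure D3:**
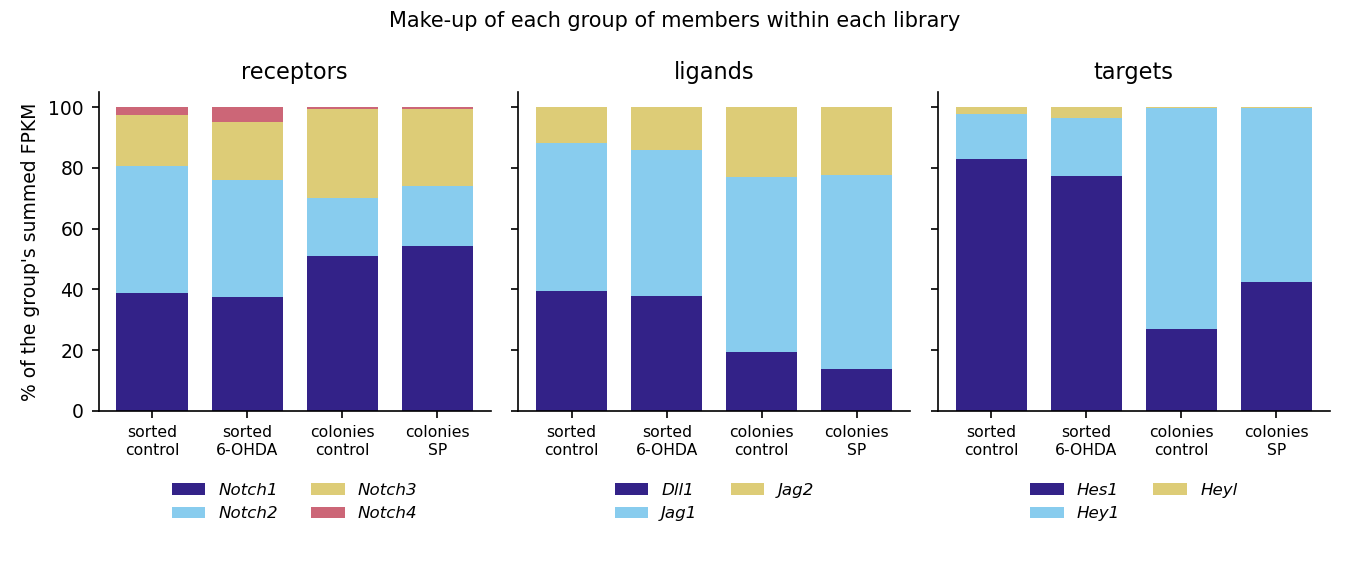
Percent of the summed FPKM of the receptors, ligands and targets that each member makes up in each of the 4 libraries, as stacked bars from 0 to 100. Hey1 makes up 73.0% of the targets in control colonies and 14.9% in sorted control, and Dll1 19.3% and 39.3% of the ligands.

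Markers of other cells that the sort could hold also differed between the libraries. The 8 fibroblast markers summed to 193 FPKM in sorted control, 391 in sorted 6-OHDA, 45.8 in control colonies and 27.8 in SP colonies, with 5 of 8 higher after 6-OHDA, Dcn the most abundant in both sorted libraries, at 115 and 135 FPKM, Col1a2 in control colonies at 20.6 and Fbln1 in SP colonies at 15.1, and Dpt listed at 0 in SP colonies. The 8 leukocyte markers summed to 104, 33.6, 24.3 and 60.1 FPKM, with Cd74 the most abundant in sorted cells at 73.0 and 19.5 FPKM and H2-Ab1 in colonies at 22.6 and 58.1. Ptprc and Cd3e were listed at 0 in both colony libraries, Csf1r in control colonies and Cd3e in sorted 6-OHDA. The 6 adipocyte markers summed to 236, 417, 40.4 and 1.2 FPKM and were led in each library by Fabp4, a fatty acid carrier also made by endothelium, at 210.2, 374, 34.4 and 1.05 FPKM, with Cidec at 0 in sorted 6-OHDA and Cidec and Plin1 at 0 in SP colonies. The part of these cells in the member levels was not tested.

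Other genes of the pathway were taken from a list of 61, of which 60 were measured. Between the controls 18 of 51 compared were higher and 16 lower in colonies, with a median difference of 0.11, and after median-ratio scaling 13 were higher and 30 lower, with a median of −0.33. After 6-OHDA 9 of 52 were higher and 5 lower, with a median of 0.00, and 5 and 11 after scaling. With SP 1 of 52 was higher and 9 were lower, with a median of −0.11, and 4 and 7 after scaling. The shares of all genes given above for each comparison are the background of these counts.

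Another group covers the enzymes that cut the receptor or its precursor, including subunits of γ-secretase. Of 9 compared, 6 were higher and 2 lower in control colonies than in sorted control, beside 55.7% and 26.6% of all genes. Their median difference was 1.48, beside 0.45 for all genes, and 0.98 after scaling, when 6 were higher and 3 lower. Adam17, a sheddase, had 9.19 FPKM in sorted control, 11.7 in sorted 6-OHDA, 32.3 in control colonies and 36.4 in SP colonies, a difference of 1.71 between the controls. Aph1a and Aph1b, subunits of γ-secretase, differed by 1.63 and 2.05. After 6-OHDA 3 of 9 were higher and none lower, Psenen by 0.41, Adam10 by 0.38 and Adam17 by 0.31. After median-ratio scaling Adam17 fell under the threshold, so that 2 were higher, and 1 other gene was lower. With SP 1 of 10, Psen2, was lower, by a difference of −0.44.

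Of the 9 genes of the nuclear complex 5 were lower in control colonies than in sorted control, 1 was higher and 3 lay within the threshold, beside 26.6% of all genes lower. Rbpj, the DNA-binding partner of the receptor's intracellular domain, had 44.4 FPKM in sorted control, 48.7 in sorted 6-OHDA, 20.1 in control colonies and 18.5 in SP colonies. Its difference between the controls was −1.10, and that of the coactivator Maml1 was −0.75. The higher gene was the acetyltransferase Kat2b at 0.72. The median of the 9 was −0.44, and after scaling 7 were lower and none higher. After 6-OHDA none of the 9 passed the threshold as deposited, with Kat2b at 0.28 and Ep300 at −0.27, but after scaling Ep300 at −0.33 and Maml1 at −0.31 were lower. With SP Maml2 was lower as deposited, by a difference of −0.35, and within the threshold after scaling, at −0.29.

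Among the 11 corepressors 5 were higher and 2 lower in control colonies, led by Cir1 at 1.55, Hdac1 at 1.04 and Hdac2 at 0.87, and after scaling 3 were higher and 5 lower. With SP 1 of the 11 was lower, Tle1 at −0.40.

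Of the other genes listed as targets 2 could be compared between the controls, and both were higher in colonies. Nrarp, a target that also feeds back on the pathway, had 6.47 FPKM in sorted control, 7.59 in sorted 6-OHDA, 22.7 in control colonies and 27.7 in SP colonies. Hes6, a relative of Hes1 that can oppose it, had 2.85, 2.53, 16.3 and 15.4 FPKM in the same order. Their differences between the controls were 1.67 and 2.17, beside the 1.67 of Hey1 and the −2.07 of Hes1. The genes listed as targets thus did not move as a set, with Hes6 or without it. None of the other targets compared passed the threshold after 6-OHDA or with SP as deposited, and Nrarp did with SP after scaling, at 0.34.

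Of the other ligands, Dll4, the Delta-like ligand of endothelium, had 10.6 FPKM in sorted control, 11.2 in sorted 6-OHDA, 0.38 in control colonies and 0.07 in SP colonies. Its difference between the controls was −3.07. Mfng, a Fringe glycosyltransferase that modifies the receptors, had 2.42, 3.31, 0.04 and 0.04 FPKM in the same order, a difference of −1.72. The endothelial sums given for Notch4 were also lower in colonies than in sorted cells, and their part in this difference was not tested. Dlk2, a non-canonical ligand, was higher after 6-OHDA by 0.71 and with SP by 1.11, from 2.80 to 5.21 FPKM and from 1.25 to 3.87 FPKM, and lower in control colonies than in sorted control by a difference of −0.76. Dlk1 was higher after 6-OHDA by 0.68, from 1.23 to 2.57 FPKM.

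Of the 5 glycosyltransferases 3 were higher and 2 lower in control colonies, with Poglut1 at 1.73 and Pofut1, the enzyme that adds fucose to the receptors, at 1.23. Poglut1 had 13.1 FPKM in sorted control, 17.8 in sorted 6-OHDA, 45.9 in control colonies and 35.7 in SP colonies, and differed by 0.41 after 6-OHDA and by −0.35 with SP. Lfng differed by −0.35 and Mfng by 0.33 after 6-OHDA, and Rfng, named after its value was seen, by −0.32. After scaling Poglut1 with SP and Mfng after 6-OHDA lay within the threshold, at −0.28 and 0.29. Genes of receptor turnover and endocytosis mostly stayed within the threshold between the controls, 9 of 13, with Itch at 0.54, Dtx3l at −0.47 and Dtx2 at −1.16 outside it, as was Numb, named after its value was seen, at −0.30, but after scaling 11 of 13 were lower and Itch was within it at 0.06. After 6-OHDA 2 of 13 were higher and 2 lower, and none was higher and 4 were lower after scaling. Dtx3l was lower by a difference of −0.81, from 12.7 to 6.79 FPKM. Dtx2 differed by −0.36 and Dtx3 by 0.35, the last within the threshold after scaling at 0.29. With SP 5 of 14 were lower and none higher, and 5 lower and 2 higher after scaling, and the ubiquitin ligase Mib2, which acts on the ligands, differed by −0.60, Numbl by −0.51 and Dtx3 by −0.48.

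**Figure D4:**
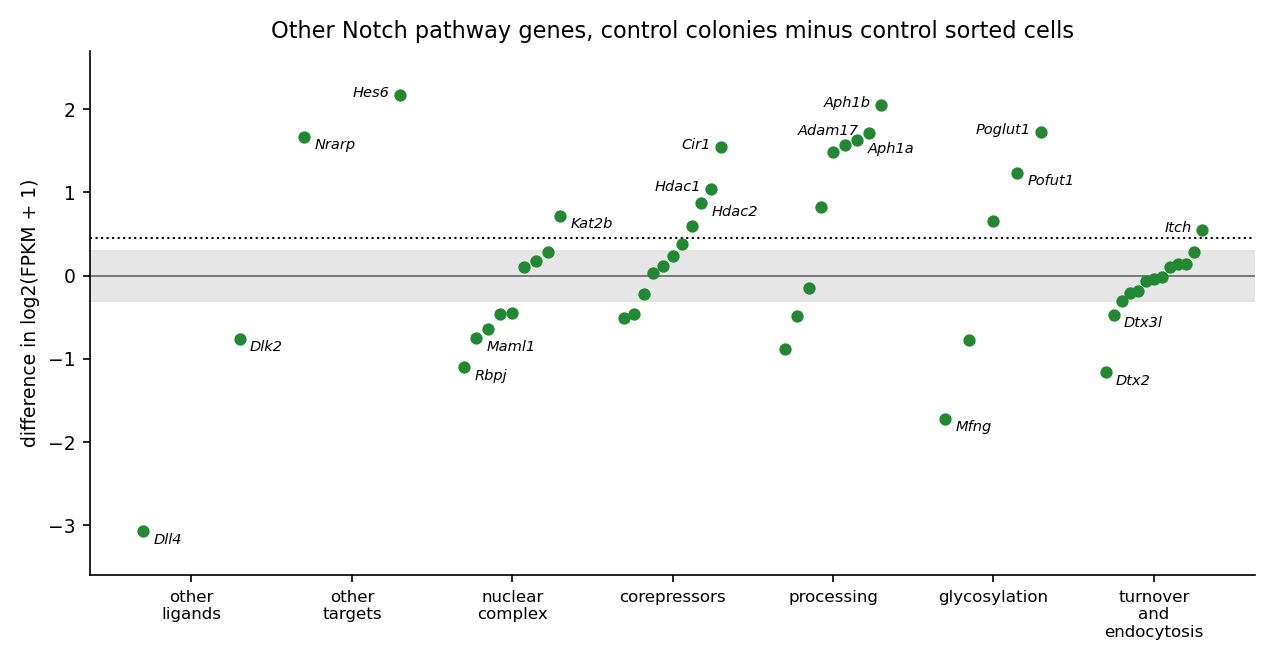
Difference in log2(FPKM + 1) between control colonies and sorted control for the 51 other Notch pathway genes compared, 1 point per gene, by group, with the grey band for differences up to 0.3 in size, the dotted line for the median of all genes compared, 0.45, and up to 3 genes named per group. Dll4 lies lowest at −3.07 and Hes6 highest at 2.17.

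The genes whose pattern over the 4 libraries was nearest to each member were found among named genes with a mean of at least 5 FPKM, by the largest absolute difference of the centred log2(FPKM + 1) values. Hes1 lay nearest to Ehd4 (0.04) and Tnfrsf12a (0.05), and 50 of 9100 genes lay within 0.2 of it. Hey1 lay nearest to Hoxb3 (0.03) and Bhlhe41 (0.04), with 72 genes within 0.2. Such neighbours were most frequent for Jag2, with 828 genes, whose nearest were Sec24c and Mitd1. Notch1 was nearest to Rhod and Pik3r3 (354 genes within 0.2), Notch2 to Taf5l and Ranbp3 (522), and Notch3 to B3gat3 and Ptch1 (416). Dll1 was nearest to Irf9 and Crtc2 (130), and Jag1 to Arnt and Tomm40 (206). The scarce members Notch4 and Heyl were nearest to Map3k1 and Chkb (69 of 9101) and to Ing5 and B4galt6 (86), in which the scale understates the members' own change. With 4 libraries, likeness of pattern is a description only.

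The promoters of Notch1 and Notch3, receptors that were both higher in colonies, and of Dll1, which was lower, are shown to let their sequences be compared. They come from the RefSeq table for GRCm38.p6, which holds the 250 bases before and 50 bases after annotated starts and matched 7 of the 10 members, all but Hes1, Hey1 and Heyl, with 8 promoters. The core motif of RBPJ, TGGGAA on either strand, was in none of the 8, where 25.6% of the 32851 promoters in the table hold it. The GC box GGGCGG on either strand, searched after the first motif gave no match, was in 4 of the 8 and in 35.7% of all promoters. It occurred 5 times in Notch1, 7 in Notch2, 4 in Notch3 and 5 in Jag2, and in none of the Notch4, Jag1 and Dll1 promoters. GC content was 68.3% for the Notch1 promoter, 70.0% for Notch3 and 56.3% for the Dll1 promoter shown, beside a median of 52.7% over all promoters. Each is printed 5′ to 3′ in the direction of its gene, on the minus strand, with the GC box in capitals, for Notch1 at chr2:26503773-26504072, Notch3 at chr17:32166841-32167140 and Dll1 at chr17:15376883-15377182.
Notch1: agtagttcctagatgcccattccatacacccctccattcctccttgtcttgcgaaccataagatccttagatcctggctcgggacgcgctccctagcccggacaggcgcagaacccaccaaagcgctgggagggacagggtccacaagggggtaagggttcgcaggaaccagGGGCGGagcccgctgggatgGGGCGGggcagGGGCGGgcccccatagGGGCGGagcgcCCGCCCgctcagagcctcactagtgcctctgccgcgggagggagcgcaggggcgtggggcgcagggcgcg
Notch3: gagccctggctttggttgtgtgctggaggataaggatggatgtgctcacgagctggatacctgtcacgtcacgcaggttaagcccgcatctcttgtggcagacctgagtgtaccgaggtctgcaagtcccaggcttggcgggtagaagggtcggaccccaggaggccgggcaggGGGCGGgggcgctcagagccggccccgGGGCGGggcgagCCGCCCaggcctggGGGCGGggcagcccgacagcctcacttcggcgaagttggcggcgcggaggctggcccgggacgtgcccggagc
Dll1: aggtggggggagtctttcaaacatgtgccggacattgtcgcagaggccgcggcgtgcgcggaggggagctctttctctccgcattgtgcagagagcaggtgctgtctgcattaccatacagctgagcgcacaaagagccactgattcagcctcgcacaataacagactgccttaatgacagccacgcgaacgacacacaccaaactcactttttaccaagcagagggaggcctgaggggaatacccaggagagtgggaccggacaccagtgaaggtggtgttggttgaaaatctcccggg
A match of these letters is a description and not a binding site.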

How the data were processed

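Messenger RNA libraries of 4 conditions, 1 each, were analysed. The authors deposited FPKM values with 2 decimals for 17630 genes per library. The submitters' processing notes name Bowtie2, RSEM 1.3.1, DESeq2 1.4.5 and the build mm10, and the annotation is not given in the sources used here. RSEM shares fragments that fit several genes between them, so values of related genes can affect each other. NCBI Gene numbers matched symbols of RefSeq GRCm38.p6 for 17512 genes, and the other 118 stayed in without a name.

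FPKM are not counts, so no count test was run here, and 1 library per condition allows no p-value. Differences were taken as log2(FPKM + 1), with a mean of at least 1 FPKM over the 2 libraries and a threshold of 0.3. The alternatives were pseudocounts of 0.1 and 5, no filter, a mean of at least 5, the same sum with and without salivary genes, median-ratio scaling, quantile normalization and a threshold of 1. The comparison step was tested on simulated data. Fragment numbers rest on genes with 1 transcript in GENCODE vM21 and are rough: assumed fragment lengths of 200 to 300 bases gave 15.7 to 18.9 fragments per FPKM and kilobase, and fits at 250 bases scored 0.42 to 0.44, where 1 is perfect.

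Named were the 10 members, the 3 genes of each pathway group with the largest difference in each comparison, the most abundant gene of each marker list with its markers at 0, and the 2 genes nearest in pattern to each member. The result of 1 gene under this rule is not reported here. The members and lists were chosen with earlier results of these data known. Python 3.11.15, numpy 2.4.6, pandas 2.3.3 and matplotlib 3.10.9 were used.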

Additional observations from a re-analysis of the deposited data

How the results depend on the processing

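Of the 26 differences of single members, 17 kept their side of the 0.3 threshold under the pseudocount and scaling alternatives, and none that passed it changed sign. Over 140 values recomputed, 129 stayed on their side, 4 dropped under the threshold and 7 passed it, leaving out the filters, which cannot move the difference of a single gene, and the sum without salivary genes outside the 6-OHDA comparison. The counts moved more. With a threshold of 1 there were 0 members higher and 0 lower both after 6-OHDA and with SP, and the other pathway genes came to 0 higher and 0 lower after 6-OHDA, 0 lower with SP, and 11 higher and 4 lower in control colonies than in sorted control. Median-ratio scaling gave 3 members lower after 6-OHDA, 2 higher and 1 lower with SP, and for the pathway genes 5 higher and 11 lower after 6-OHDA, 4 higher with SP, and 30 lower in control colonies with a median of −0.33 in place of 0.11. That median also turned negative after quantile normalization, at −0.26 with 24 genes lower, and at the same sum with or without salivary genes, at −0.05, and the members' median of 0.27 turned to −0.23 after median-ratio scaling and to −0.22 without a filter. Quantile normalization gave 2 members lower after 6-OHDA, 2 members higher with SP, 8 pathway genes lower after 6-OHDA and 4 higher with SP. Members higher after 6-OHDA, 1 as reported, were 2 with a pseudocount of 0.1, 0 with 5 and 0 with a mean of at least 5 FPKM. Pathway genes were 5 higher and 1 lower after 6-OHDA with a pseudocount of 5, 2 higher with SP with a pseudocount of 0.1 and 0 with a mean of at least 5, and 3 lower after 6-OHDA with the same sum without salivary genes. Without a filter 5 members were lower in control colonies, since Notch4 and Heyl were then compared. For the others the cause was not tested. Depth limits the colony values of Notch4 and Heyl, and with 1 library per condition no difference has a replicate check.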
